A study of Mus musculus with 4 samples.

Results

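Erythroblasts of Parp2 knockout and of wild type mice were compared for 10 genes through which the tumour suppressor p53 acts on cell death: Bbc3, Pmaip1, Bax, Ei24, Perp, Fas, Tnfrsf10b, Eda2r, Aen and Pidd1. They were chosen by name as death effectors among p53 target genes, and each was represented by the array probe set that names it alone. Of the 10 genes, 9 had such a probe set, among 19938 genes with one in all. Each of the 9 had a single probe set, and none shared one with another gene. Bax had no probe set that the annotation used here assigns to it, so it is not analysed here.

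The study set Parp-2-/- mice against WT mice, both of strain background C57BL/6, with 2 arrays of each genotype, called KO and WT below. Parp2 encodes a poly(ADP-ribose) polymerase that acts at damaged DNA. The cells were bone marrow cells sorted for Ter119, a surface antigen of red cell precursors, and for CD71, the transferrin receptor, and their total RNA (100 ng a sample) was labelled for an Affymetrix whole-transcript array. The nature of the Parp2 allele, the age of the mice and whether an array came from 1 animal or several are not given in the sources used here, so the spread behind each p-value may be technical.

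p53 is a transcription factor that is stabilised after DNA damage and replication stress, and its target genes either arrest the cell cycle, aid repair or promote apoptosis. The death effectors act at several places: receptors at the cell surface pass a signal to initiator caspases, BH3-only proteins disable the survival members of the BCL2 family so that BAX and BAK permeabilise mitochondria, and other effectors act in membranes or in the nucleus. Red cell precursors depend on erythropoietin, which keeps them alive through survival members of the BCL2 family.

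The p53 consensus is a pair of 10-base units, each with 3 purines, a core of C, a pair of A or T bases and G, and 3 pyrimidines, and it reads alike on both strands. It was searched in RefSeq promoter windows of 300 bases (GRCm38.p6, 250 bases before to 50 after an annotated start). Of the 10 genes, 7 were examined, with 10 windows. Perp and Tnfrsf10b had no window, and Pmaip1 was left out, so whether its promoter holds an element was not tested. Counting adjoining units with both cores intact and up to 3 mismatches in the 12 other bases, an element lay in 188 of 32851 windows (0.572%). Among the 7 genes examined it lay in a window of Bbc3 and, at a single place, in both windows of Aen. A limit of 3 mismatches was set after these windows had been seen, and a match is a description of the letters, not evidence of binding.

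The elements of Bbc3 (first base 97 bases before the first annotated start, chr7:16309481-16309510, + strand) and Aen (first base 121 bases before the second annotated start, chr7:78895932-78895961, + strand) are shown with 5 bases on each side, because they are the matches among genes that read higher in the KO below. Capitals mark the 20-base element.
Bbc3: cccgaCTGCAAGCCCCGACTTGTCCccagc
Aen: aagccGGGCTTGTCCGGGCAAGGAGcttcc

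A single 10-base unit without any mismatch was much more common, with 2745 of 32851 windows (8.36%), and occurred in the windows of Aen (the first 10 capitals above), Ei24 and Bax. For Ei24 it adjoined the start, with its first base 10 bases before it, and is shown in capitals with 5 bases on each side (chr9:36797330-36797349, - strand).
Ei24: ggcccGGGCATGCCCagtgt

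Neither pattern was found in the windows of Eda2r, Fas and Pidd1. The 250 bases before the start of Eda2r (chrX:97377210-97377459, - strand) are printed because this gene had the largest difference of the 9. They show only that these letters are absent from this window, and p53 elements of other genes are known to lie in introns or farther upstream.
Eda2r: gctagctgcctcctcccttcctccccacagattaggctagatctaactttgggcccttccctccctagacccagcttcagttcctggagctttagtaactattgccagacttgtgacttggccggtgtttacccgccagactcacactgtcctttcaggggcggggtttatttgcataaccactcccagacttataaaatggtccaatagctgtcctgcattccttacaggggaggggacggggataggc

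The labels were checked on Parp2 (probe set 10414497), which read 7.11 and 6.70 on the KO arrays, replicates 1 and 2, against 8.24 and 7.65 on the WT arrays (log2), the direction the genotype calls for. Erythroid markers were bright on all arrays: 10 of 12 listed had their own probe set and read from 9.06 to 13.0, among them Tfrc, which encodes CD71. The 18 neutrophil markers read from 6.06 to 13.3 on the same arrays, so brightness alone does not give the share of each cell type. KO replicate 2 had a narrower distribution than the others, with an interquartile range of 1.98 against 2.62 to 2.94. It read higher than KO replicate 1 for 60.1% of the 23410 annotated probe sets, for 84.5% of the dimmer and for 35.8% of the brighter part, split at a mean level of 5.36. The 4 arrays thus do not share a single distribution.

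Taken over the 9 genes, 8 had a higher mean in the KO, and in 6 of them both KO arrays lay above both WT arrays (Eda2r, Ei24, Bbc3, Aen, Pidd1 and Perp). Of all annotated probe sets 56.4% had a higher and 43.6% a lower mean in the KO, 15.6% had both KO arrays above both WT arrays, and 9.42% had both below. The median difference of the 9 genes, KO minus WT, was +0.49 on the log2 scale, and the median of all probe sets was +0.06. The median level of the 9 genes was 5.72 and 6.60 on the KO arrays, replicates 1 and 2, against 4.85 and 5.04 on the WT arrays. After the Benjamini-Hochberg adjustment over all probe sets, limma called 0 of the 9 genes and 0 of 23410 probe sets (0% called), while 2 of the 9 (Eda2r and Ei24) had an unadjusted p under 0.05, which 0.342% of probe sets had in that direction, 1.73% in the other and 2.08% in either. The smallest p of a two-sided exact permutation test is 0.333 with 2 arrays a group, and it was not run. The 9 genes had an adjusted p of 0.99995 each.

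**Figure D1:**
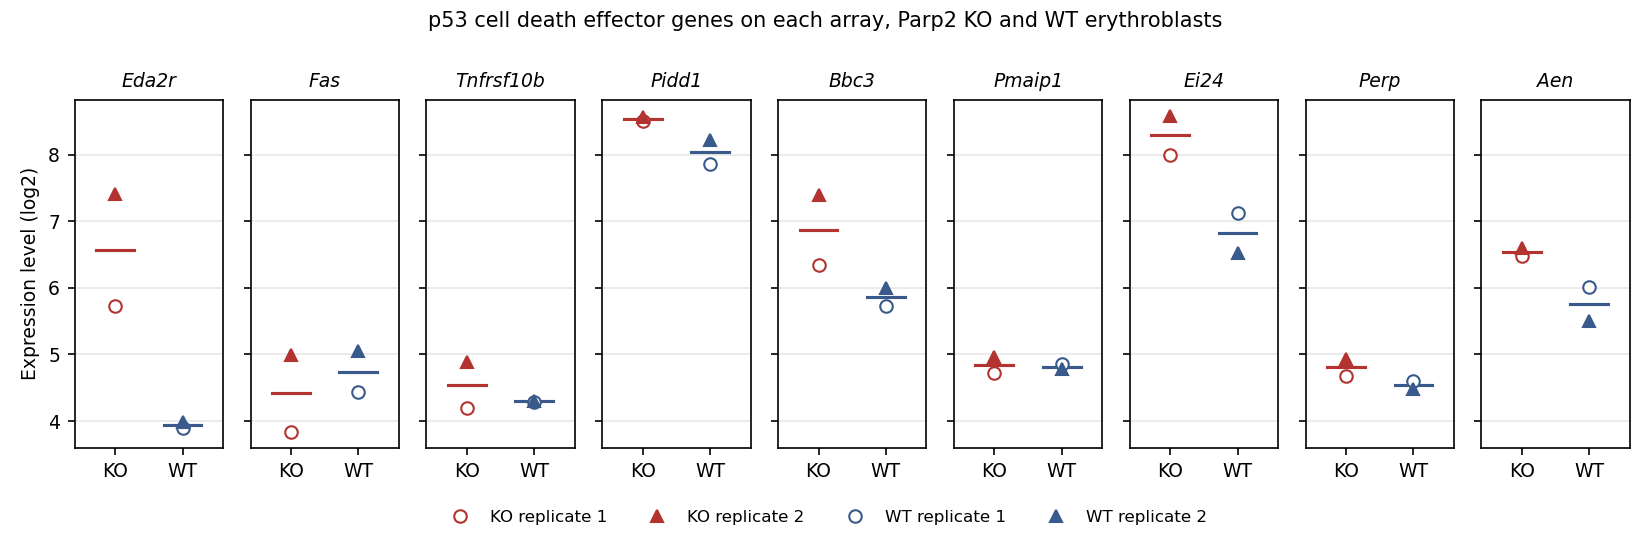
Expression level (log2, vertical axis) of the 9 measured genes on each array, KO left and WT right in each panel; open circles are replicate 1, filled triangles replicate 2, and horizontal lines group means. Eda2r read 5.72 and 7.42 on the KO arrays against 3.89 and 3.99 on the WT arrays, whereas Fas, Tnfrsf10b and Pmaip1 overlapped; levels of different genes come from different probes and are not compared.

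The largest difference lay in a receptor. Eda2r, also called XEDAR, is a member of the tumour necrosis factor receptor family that binds the ectodysplasin isoform EDA-A2. It read 5.72 and 7.42 on the KO arrays, replicates 1 and 2, against 3.89 and 3.99 on the WT arrays. Both KO values stood clear of the WT values, with a gap of 1.73 between the lower KO and the higher WT array, and the KO arrays differed from each other by 1.70. The mean difference was +2.63 ± 0.58 (SE, n = 2 per group; 95% interval 1.25 to 4.01), or 6.18-fold, and limma's unadjusted p was 0.00290. With a trended, robust prior the limma adjusted p was 0.0288, within a range of 1.97e-07 to 0.99999 over all alternatives. Only 0.0128% of probe sets had a higher difference. No detection call comes with the values, so whether the WT level lay above background was not tested.

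The groups of the other receptors overlapped. Fas, whose protein recruits FADD and caspase-8 when bound by Fas ligand, read 3.84 and 4.999 on the KO arrays against 4.43 and 5.04 on the WT arrays. Each genotype had its lower value on replicate 1, and the difference of -0.32 ± 0.50 (SE) had a 95% interval of -1.51 to 0.87. Tnfrsf10b, the mouse receptor for the death ligand TRAIL, read 4.20 and 4.89 on the KO arrays against 4.29 and 4.30 on the WT arrays. One KO array lay above and one below the WT values, which differed from each other by 0.015, and the difference was +0.25 ± 0.40 (95% interval -0.70 to 1.19).

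Pidd1 encodes a death domain protein that assembles the PIDDosome, the platform that activates caspase-2, and that also takes part in NF-kB signalling. Its level was 8.50 and 8.56 on the KO arrays and 7.86 and 8.22 on the WT arrays. The groups did not overlap, with a gap of 0.28, and the KO arrays lay closer together than the WT arrays. The difference was +0.49 ± 0.36 (SE, 1.40-fold), with a 95% interval of -0.38 to 1.35.

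Of the BH3-only genes, Bbc3 had separate groups and Pmaip1 overlapping ones. Bbc3, which encodes PUMA and binds all survival proteins of the BCL2 family, read 6.35 and 7.40 on the KO arrays against 5.73 and 5.99 on the WT arrays. Both KO arrays lay above both WT arrays, and KO replicate 1 exceeded the higher WT array by 0.36. Its difference of +1.01 ± 0.46 (SE, 2.02-fold) had a 95% interval of -0.07 to 2.10 and an unadjusted p of 0.0632 in the limma fit. Pmaip1, which encodes NOXA, a BH3-only protein that targets MCL1, read 4.73 and 4.96 on the KO arrays against 4.85 and 4.78 on the WT arrays. The KO values lay on either side of the WT values, and the difference of +0.02 ± 0.35 had a 95% interval of -0.82 to 0.87, which leaves changes of up to that size in either direction undetected.

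The genes of membrane proteins both had KO values above the WT values. Ei24, also known as PIG8, encodes a membrane protein of the endoplasmic reticulum that is induced by p53 and takes part in autophagy. It read 8.001 and 8.59 on the KO arrays against 7.12 and 6.52 on the WT arrays. The groups were apart by 0.88, more than the distance within either genotype (0.59 in the KO and 0.60 in the WT). The difference was +1.48 ± 0.42 (SE, 2.78-fold; 95% interval 0.48 to 2.47), with a limma p of 0.00998 before adjustment, and 0.175% of probe sets had a higher one. Perp, a tetraspan protein of the plasma membrane and of desmosomes, read 4.68 and 4.93 on the KO arrays against 4.60 and 4.48 on the WT arrays. Its groups were separated by only 0.08, and the difference was +0.27 ± 0.36 (95% interval -0.58 to 1.12).

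Aen encodes a p53-induced nuclear exonuclease that digests DNA during apoptosis. It read 6.48 and 6.60 on the KO arrays against 6.01 and 5.51 on the WT arrays. The groups did not overlap, and the KO arrays differed by 0.12 while the WT arrays differed by 0.51. The difference was +0.78 ± 0.38 (SE, 1.72-fold; 95% interval -0.11 to 1.68), and the unadjusted limma p was 0.0774.

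Set beside the differences of all probe sets, 4 of the 9 genes (Eda2r, Ei24, Bbc3 and Aen) lay above the middle 90% of them, which ran from -0.79 to +0.54, and 5 lay within it. The highest 1% of differences began at +0.86, which Eda2r, Ei24 and Bbc3 exceeded.

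**Figure D2:**
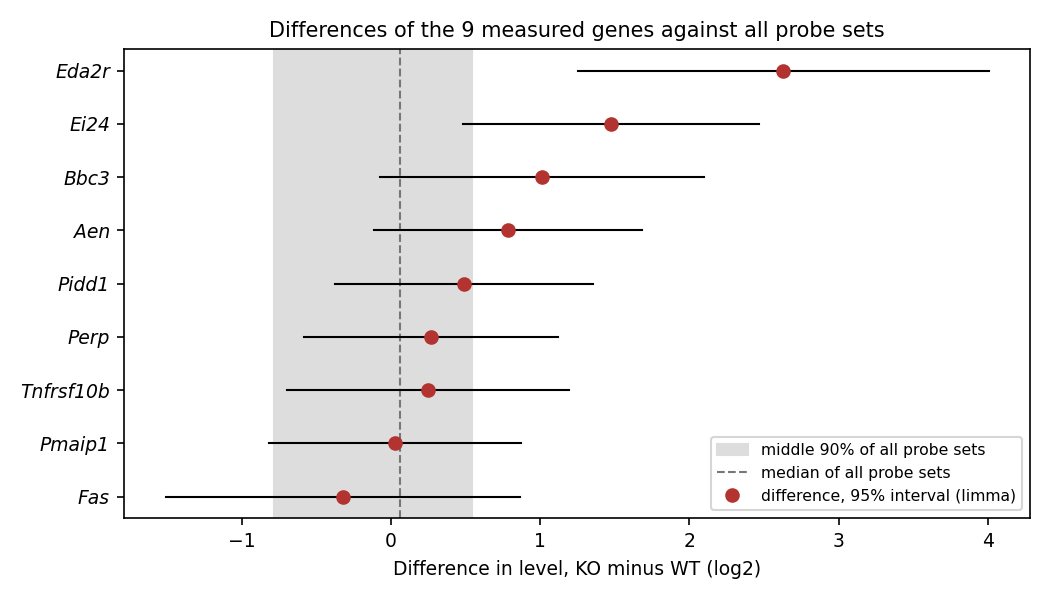
Difference in level, KO minus WT (log2, horizontal axis), of each of the 9 genes, with the 95% interval from limma as a line; the grey band holds the middle 90% of the differences of all probe sets and the dashed line is their median. Eda2r at +2.63 and Ei24 at +1.48 have intervals above 0, and the other 7 intervals include 0.

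The higher values were not spread evenly over the KO arrays. KO replicate 2 read higher than KO replicate 1 for all 9 genes, by 0.06 for Pidd1 up to 1.70 for Eda2r, whereas WT replicate 2 read higher than WT replicate 1 for 5 of the 9. Over all probe sets the shares were 60.1% in the KO and 46.2% in the WT. Of the 9 genes, 5 (Eda2r, Pmaip1, Perp, Fas and Tnfrsf10b) had a mean level under 5.36, in the range where 84.5% of probe sets were higher on KO replicate 2, and 4 (Ei24, Bbc3, Aen and Pidd1) were brighter. Eda2r fell under 5.36 only through its WT arrays (3.89 and 3.99), since its KO arrays read 5.72 and 7.42. Among dim probe sets 23.3% had both KO arrays above both WT arrays, and among the brighter ones 7.84%. Without KO replicate 2 the difference was +1.78 for Eda2r, +1.18 for Ei24, +0.72 for Aen, +0.49 for Bbc3, +0.46 for Pidd1 and +0.14 for Perp. Pidd1 depended more on the WT arrays, at +0.30 without WT replicate 1. Tnfrsf10b had the opposite sign without KO replicate 2, at -0.10. Pmaip1 did so without KO replicate 2, at -0.09, and without WT replicate 2, at -0.01. Without KO replicate 1 the difference of Fas was +0.26, and all 9 genes were then higher in the KO.

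When the arrays were forced onto a common distribution by repeating quantile normalisation, differences of the brighter members and of Eda2r were somewhat larger, at +2.82 for Eda2r, +1.64 for Ei24, +1.20 for Bbc3, +0.95 for Aen and +0.67 for Pidd1. Those of the dim members moved the other way, to +0.13 for Perp, +0.11 for Tnfrsf10b, -0.11 for Pmaip1 and -0.44 for Fas. On this scale 7 of the 9 were higher in the KO and 5 had both KO arrays above both WT arrays, against 55.1% and 16% of all probe sets.

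**Figure D3:**
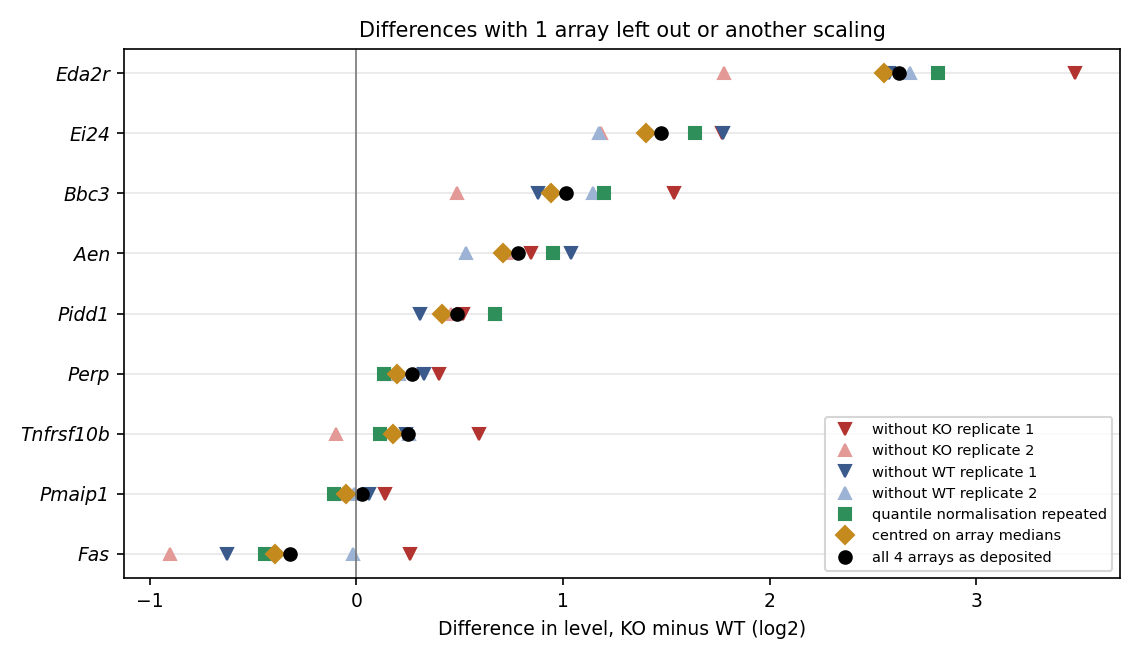
Difference in level, KO minus WT (log2, horizontal axis), of each gene with all 4 arrays as deposited (black circles), with 1 array left out (triangles) and under 2 other scalings (square and diamond). Eda2r, Ei24, Bbc3, Aen, Pidd1 and Perp stay above 0 in every setting shown, while points of Tnfrsf10b, Pmaip1 and Fas fall on both sides of 0.

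Partners of these effectors and related genes were examined next, in gene lists of the pathway. The first list held 13 measured genes of death receptor signalling: ligands, adaptors, Casp8, Cflar and the further receptors Tnfrsf1a, Tnfrsf1b and Edar. Of these, 4 were higher and 9 lower in the KO, with a median difference of -0.15. Limma called 0 of them, and 1 (Tnfrsf1a) had an unadjusted p under 0.05. Both KO arrays lay above both WT arrays for 0 of the 13 and below for 3, against 15.6% and 9.42% of all probe sets. The ectodysplasin gene Eda, a source of the Eda2r ligand, differed by +0.20, Fas ligand (Fasl) by +0.09 and the TRAIL gene Tnfsf10 by -0.15, each with overlapping groups. Fadd, the adaptor of Fas and of the TRAIL receptor, differed by -0.07. Casp8, the initiator caspase they recruit, read 7.06 and 6.34 on the KO arrays against 7.45 and 7.32 on the WT arrays, a difference of -0.68. Cflar, which encodes the caspase-8 inhibitor FLIP, was at -0.92 ± 0.88 (SE) with overlapping groups.

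In this list the lowest p belonged to a receptor of tumour necrosis factor itself. Tnfrsf1a read 6.16 and 6.21 on the KO arrays against 7.58 and 7.53 on the WT arrays, a difference of -1.37 ± 0.35 (SE). Its adaptor gene Tradd read 5.74 and 5.45 on the KO arrays against 6.97 and 6.10 on the WT arrays, a difference of -0.94 ± 0.43. Both were lower on each KO array, and neither passed the adjusted test. Markers of myeloid and lymphoid cells were lower at the same time (values below), and their part in these differences was not tested.

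The measured partners of Pidd1 had differences between -0.22 and +0.06. Casp2 read 8.20 and 8.26 on the KO arrays against 8.32 and 8.51 on the WT arrays, a difference of -0.19 ± 0.35. Cradd, whose protein RAIDD bridges PIDD1 and caspase-2, differed by +0.06 ± 0.40, Ikbkg, the NEMO subunit of the NF-kB kinase complex, by -0.22 ± 0.35, and Nfkbia, an inhibitor of NF-kB, by -0.10 ± 0.41. Among the 4 measured partners 1 was higher and 3 lower, with 0 called and 0 at an unadjusted p under 0.05. Both KO arrays lay below both WT arrays for 2 of them (Ikbkg and Casp2) and above for 0, against 9.42% and 15.6% of all probe sets.

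Among the other members of the BCL2 family, 9 of 13 measured were higher and 4 lower, with a median of +0.12, 0 called and 0 at an unadjusted p under 0.05 in limma. Only Bok, a relative of Bax, had both KO arrays above both WT arrays (+0.46 ± 0.36), and 0 of the 13 had both below. Of all probe sets 56.4% were higher, 15.6% lay above and 9.42% below without overlap. Bcl2l1, whose product BCL-XL keeps erythroblasts alive and is bound by PUMA, read 8.82 and 10.2 on the KO arrays against 6.17 and 10.3 on the WT arrays. Its spread within the WT exceeded the difference of +1.31 ± 1.22 (SE). Bid (+0.35 ± 0.48), which links death receptors to mitochondria, Mcl1 (-0.24 ± 0.42), the partner of NOXA, and Bak1 (-0.37 ± 0.83), the counterpart of Bax, overlapped between the genotypes.

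Farther down, 5 of 10 measured genes of the apoptosome and its caspases were higher and 5 lower, with a median of -0.03, 0 called and 0 at an unadjusted p under 0.05. Apaf1, the scaffold of the apoptosome and itself a p53 target, read 7.77 and 8.27 on the KO arrays against 6.96 and 7.67 on the WT arrays, a difference of +0.71 ± 0.42. Birc3 (+0.33 ± 0.36), an inhibitor of apoptosis, was also without overlap, and Htra2 (-0.35 ± 0.46) overlapped. Both KO arrays thus lay above both WT arrays for 2 of the 10 and below for 0, against 15.6% and 9.42% of all probe sets.

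The regulators of p53 and its targets in arrest, repair, metabolism and signalling gave the wider setting. Some of these targets, among them Phlda3 and Zmat3, are also linked to cell death and stand in the list after this as well. The gene of p53 itself, Trp53, had no probe set of its own and is not analysed here. Of 16 measured regulators 10 were higher and 6 lower, 5 of them above and 1 below without overlap, with a median of +0.18, 0 called and 1 at an unadjusted p under 0.05. Ccng1 (+1.85 ± 0.54), the cyclin G1 gene, Mdm2 (+0.82 ± 0.43), the ubiquitin ligase that degrades p53, and its relative Mdm4 (+0.59 ± 0.38) had both KO arrays above both WT arrays. Of 20 measured targets for arrest, repair, metabolism and signalling, 13 were higher and 7 lower, 10 of them above and 1 below without overlap, with a median of +0.32, 0 called and 7 at an unadjusted p under 0.05. The shares over all probe sets were 56.4% higher, 15.6% above and 9.42% below without overlap, and 2.08% at an unadjusted p under 0.05. Phlda3 (+3.24 ± 0.37), an inhibitor of Akt, Zmat3 (+2.15 ± 0.40), an RNA-binding protein, and Dglucy (+2.14 ± 0.56), a mitochondrial enzyme, had the lowest p. Cdkn1a, the gene of the cell cycle inhibitor p21, had no probe set of its own. Probe set 10443463, listed to both Cdkn1a and 4930567H12Rik, read 8.72 and 9.76 on the KO arrays against 5.37 and 5.28 on the WT arrays (+3.91 ± 0.45, SE), and which of the genes gave this signal cannot be told apart.

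A list of 14 further p53-linked death genes split evenly, with 7 higher and 7 lower, 5 of them above and 3 below without overlap. It had a median of +0.10, 0 called and 4 at an unadjusted p under 0.05. Of all probe sets 15.6% lay above and 9.42% below without overlap, and 2.08% had an unadjusted p under 0.05 in limma. The list of death genes shares Phlda3, Zmat3 and Trp53inp1 with the list before, and those were among its higher members, Trp53inp1 at +2.39 ± 0.74. Apaf1, also above without overlap, stands in the apoptosome list as well. Casp1, the inflammatory caspase, read 4.04 and 3.86 on the KO arrays against 6.35 and 5.06 on the WT arrays, a difference of -1.76 ± 0.50 (SE). These lists were drawn up with earlier results of these data known, so their counts are descriptions.

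**Figure D4:**
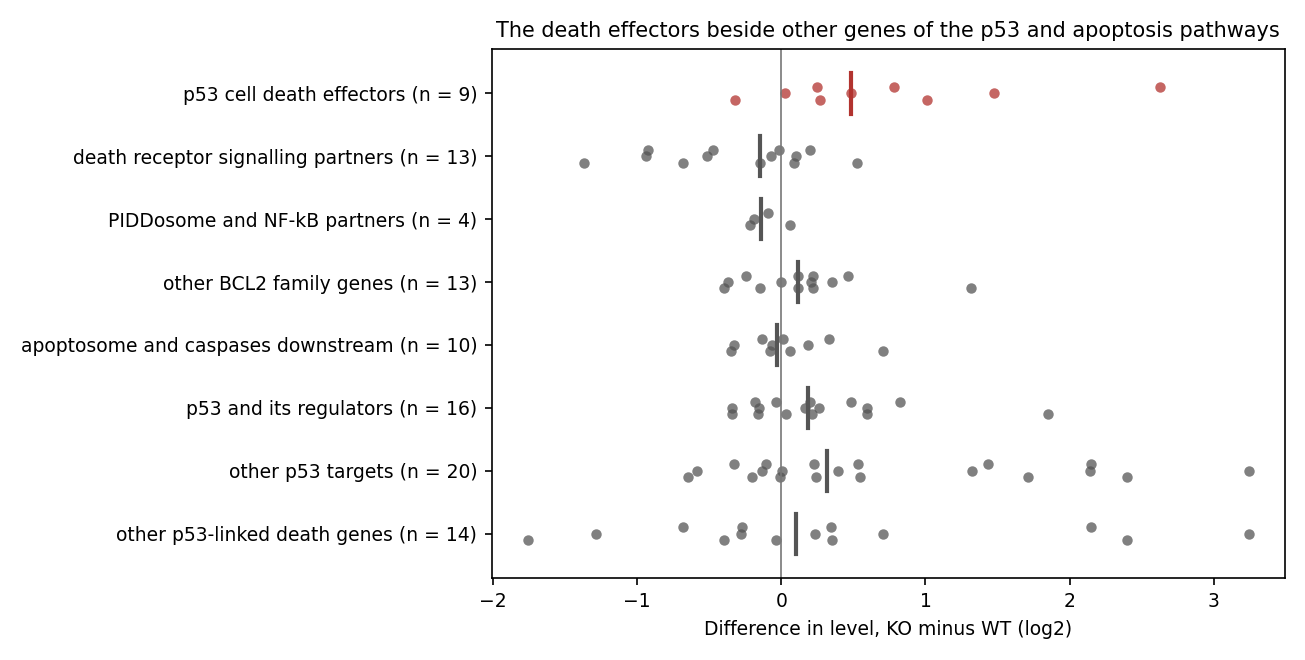
Difference in level, KO minus WT (log2, horizontal axis), of the 9 death effectors (red, top row) and of 7 lists of related genes (grey); each point is a gene and the vertical bar the median of its list. The death effectors have a median of +0.49, the other p53 targets +0.32 and the remaining lists between -0.15 and +0.18; some genes stand in more than 1 list.

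The genes with array profiles most like those of the leading effectors were found by the Euclidean distance between profiles over the 4 arrays, each centred on its own mean. Closest to Eda2r were Hspa1a, an inducible HSP70 chaperone (distance 0.31), the p53 target Dglucy (0.55) and the mitochondrial carrier Slc25a36 (0.62). Closest to Ei24 were Psrc1, a microtubule-binding protein and p53 target (0.40), Zfp825 (0.41) and Cbfa2t3, a transcriptional corepressor (0.53). With 4 arrays, many profiles resemble each other, and the distances are a description.

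Markers of other blood cells differed along with the genotype. Of 18 neutrophil markers 18 were lower in the KO, and their summed linear level was 22308 to 28990 on the KO arrays against 41097 to 50351 on the WT arrays. Of 12 B cell markers 10 were lower, with sums of 889 to 1001 in the KO against 1862 to 2321 in the WT, and of 16 monocyte and macrophage markers 14 were lower, with sums of 3583 to 3947 in the KO against 6527 to 6677 in the WT. Of 11 markers of mast cells, basophils and eosinophils 9 were lower (519 to 581 in the KO against 850 to 1750 in the WT), and of 10 T and NK cell markers 8 were lower (355 to 446 in the KO against 637 to 1009 in the WT). Megakaryocyte markers (6 of 7 higher, sums of 456 to 831 in the KO against 527 to 713 in the WT) and erythroid markers (7 of 10 higher, sums of 18109 to 27418 in the KO against 12934 to 30433 in the WT) overlapped in their sums. Limma called 0 of these markers. An unadjusted p under 0.05 was found for 10 neutrophil, 6 B cell and 3 monocyte and macrophage markers. It was found for 2 markers of mast cells, basophils and eosinophils, 2 of T and NK cells, 0 erythroid and 0 megakaryocyte markers. Of all probe sets 43.6% were lower in the KO, and 2.08% had such a p in either direction. No marker can be at 0 on this scale, and the lowest read 3.41. In sorted bulk samples, fewer cells of a type and less RNA per cell cannot be told apart, and the part of these cells in the values of the death effectors was not tested.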

How the data were processed

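RNA of sorted erythroblasts was measured on 4 arrays, 2 of Parp2 KO and 2 of WT. The authors deposited log2 expression values of 35511 probe sets, and the submitters' processing notes name RMA, limma and R 3.0.2 without their roles; the values were used as deposited. By the platform annotation 21789 probe sets name 1 gene, 1621 name several and 12101 are unnamed here. Per gene, the probe set naming it alone with the highest mean was used. The genotypes were set against each other by a moderated linear model (lmFit and eBayes of limma 3.58.1, R 4.3.3, with 2 residual degrees of freedom) over all 23410 annotated probe sets, with Benjamini-Hochberg adjustment and a threshold of 0.05, after a test on simulated arrays. The number of arrays limits the precision. The titles number the arrays within each genotype and do not say what that number stands for.

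The members, the gene lists and the tests were chosen with earlier results of these data known. Genes named are the members, Parp2, the 3 of lowest p in each pathway list, direct partners of a member and, for Eda2r and Ei24, the 3 genes of most similar profile. Trp53inp1 was added after its values were seen. Comparisons between arrays of a genotype, the mismatch limit of the promoter search and the percentiles beside the members were chosen after the values were seen. Promoter sequences are RefSeq's (GRCm38.p6), and figures were drawn with matplotlib 3.10.9 in Python 3.11.15. Other settings tried were a block for the replicate number, the omission of each array, 2 other scalings (median centring and a second quantile normalisation), omission of dim probe sets, trend and robust options of eBayes, weights per array, the whole table with unannotated rows, looser thresholds, and averaging a gene's probe sets.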

Additional observations from a re-analysis of the deposited data

How the results depend on the processing

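Limma called 0 probe sets with all arrays, 0 to 62 with 1 array left out (5 without WT replicate 1, 62 without WT replicate 2), 8 when eBayes used a trended, robust prior, 274 with the replicate block described next, and 0 under the other alternatives that keep the adjusted p; 486 had an unadjusted p under 0.05. With 1 array left out, a genotype has 1 array that is assumed to vary like the other genotype's pair, with 1 residual degree of freedom, so those counts and p-values rest on that pair and on the prior spread shared by all probe sets. Only 2 pairs of arrays share a number, whose meaning the labels do not give; across probe sets, the step between numbers 1 and 2 in the KO correlated at 0.468 with that in the WT. A fit with this number as replicate block had 1 residual degree of freedom and called 50 probe sets higher and 224 lower in the KO. Of the members, Eda2r (+2.63, limma adjusted p = 1.97e-07) and Ei24 (+1.48, limma adjusted p = 0.0281) passed with that block, and Eda2r passed with the trended, robust prior (+2.63, limma adjusted p = 0.0288). The p-values of the block fit rest mainly on the spread shared by all probe sets, not on that of the gene itself. From number 1 to 2, Eda2r moved by +1.70 in the KO and +0.10 in the WT. Ei24 moved by +0.59 in the KO and -0.60 in the WT, so the block described no common step for it. The adjusted p over the alternatives ran from 1.97e-07 to 0.99999 for Eda2r and from 0.0281 to 0.99999 for Ei24. Pmaip1 turned to -0.048 when arrays were centred on their medians and to -0.11 after repeated quantile normalisation; with 1 array left out it ran from -0.091 to +0.14, Fas from -0.90 to +0.26 and Tnfrsf10b from -0.097 to +0.59. Once dim probe sets were removed 4 members were left, of which 4 were higher. The median of the members stayed between +0.33 and +0.90. Eda2r, Ei24, Bbc3, Aen, Pidd1 and Perp kept their direction in every alternative that gave a value. Averaging a gene's probe sets and weighting arrays changed no difference, since each member has 1 probe set and both arrays of a genotype get equal weight. For the other shifts the cause was not tested.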
